A study of Mus musculus with 2 samples.

Results

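Genes of the core circadian clock were compared between 2 cultures of primary mouse keratinocytes, the cells that make up most of the epidermis. The array labelled MED1-null gave lower signal than the control array for 2 nuclear receptors that repress the clock, Nr1d1 (1.85-fold) and Nr1d2 (2.01-fold), and for Ciart, a repressor of the clock activators (1.83-fold). It gave higher signal for Arntl2, a partner of CLOCK (3.34-fold by one of its 2 probe sets and 1.49-fold by the other, which was the brighter in the control). Arntl and Clock, which encode the central activators, and the repressor genes Per1 and Cry1 all lay within 1.5-fold by the probe set used. Per2 was below the measuring floor on both arrays, and the 2 probe sets of Dbp went in opposite directions.

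The set holds 10 genes, Arntl, Arntl2, Clock, Per1, Per2, Cry1, Nr1d1, Nr1d2, Dbp and Ciart, of 18193 genes with a probe set of their own in the whole series. They were represented by 19 probe sets, groups of short probes for a transcript that are summarised as a single signal, and each was included where the platform annotation gave it that gene symbol alone. The genes were chosen by their known role in the clock, with the ratios of Arntl2, Nr1d1 and Nr1d2 on these same arrays already known, so their signals are given as a description and no test was made on them. Of the 10 genes, 9 were measured, that is, their probe set reached the floor of 67.7 on at least 1 array. The floor is the median signal of all probe sets other than Affymetrix controls, and lower signals were raised to it before log2 was taken.

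The clock runs on a feedback loop within each cell. CLOCK pairs with BMAL1, the protein of Arntl, or with its paralog BMAL2, the protein of Arntl2, binds E-box sequences and switches on the Per and Cry genes, whose proteins return to the nucleus and block the pair. In a second loop the same pair switches on Nr1d1 and Nr1d2, which encode the nuclear receptors REV-ERB alpha and REV-ERB beta. These repress Arntl at ROR elements that the ROR receptors activate. Dbp, an output transcription factor, and Ciart are further targets of the pair. In skin, keratinocytes have a working clock that times processes such as cell division.

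Keratinocytes were grown from the epidermis of newborn C57BL/6 mice on collagen-coated dishes and used as a primary culture. The control culture is titled MED1flox/flox, meaning that both copies of Med1 carry recombination sites, while its source is given as wild-type. The other culture came from K5Cre+;MED1flox/flox mice, written MED1epi-/-, in which Cre recombinase is driven by the keratin 5 promoter and so acts in keratinocytes. MED1 is a subunit of Mediator, through which transcription factors such as nuclear receptors reach RNA polymerase II. Each group has 1 array, so there is no replicate, no test and no spread between cultures, and the precision of every value is limited by there being 2 arrays. The time of day of harvest, the time in culture and the number of mice behind each culture are not given in the sources used here. Clock genes vary with time, and a difference in harvest time cannot be told apart from a difference in genotype with 1 culture of each.

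Several facts about the arrays apply to all values. Med1 itself read higher on the array labelled MED1-null, at 462.7 in the control and 1039 on the other by its brightest probe set. Each of its other probe sets also read higher on the array labelled MED1-null, at 318.3 and 944.2 by the next brightest. No probe set thus showed a loss of Med1 signal. The deleted part of the gene is not given in the sources used here, so a probe set outside it checks nothing, and the second array is named only by its label. The RNA Xist of the inactive X chromosome read 5461 and 55.7, and the Y-linked Eif2s3y read 4.2 and 2164. Sex-linked transcripts thus differed along with the label, as between female cells in the control and male cells on the other array. A difference in sex therefore cannot be told apart from a difference in genotype in any ratio given here. Of 7 keratinocyte markers 5 were measured, and all 5 read higher on the array labelled MED1-null, with a median log2 ratio of 0.37. The summed signal of those 5 was 80103 and 99655. Krt10 read 194.6 and 251.3, and Krt1 was under the floor on both arrays. Krt14, a keratin of basal keratinocytes, read 32905 and 36849, Trp63, a transcription factor of those cells, 7798 and 11736, and the hemidesmosome collagen gene Col17a1 12385 and 18599. In bulk RNA, fewer cells of a type and less RNA per cell cannot be told apart. The summed signal of 8 fibroblast markers was 3370 in the control and 1449 on the array labelled MED1-null, mostly from Sparc. Of 8 melanocyte markers the sum was 25056 and 19507. All 8 melanocyte markers were measured but 6 of the 8 fibroblast markers, with Col1a1 and Lum under the floor. Among the measured fibroblast markers 5 had a log2 ratio below 0 and 1 above. Among the melanocyte markers, by the probe set used, 6 were below 0 and 2 above, Sox10 at 0.0078 and Tyr at 0.25. By its other probe sets Tyr read lower on the array labelled MED1-null, at 272.7 and 160.4 and at 261.2 and 109.2. Of 7 immune cell markers 2 were measured, Cd74 at 71.9 and 58.9 and Lyz2 at 104.0 and 121.5, and Ptprc, which marks all white blood cells, was under the floor. All 7 summed to 263.7 and 250.5, unmeasured markers included. Of 5 endothelial markers 1 was measured, Kdr, at 80.5 and 51.6, and Pecam1 was under the floor. All 5 summed to 196.1 and 145.0, likewise with unmeasured markers. The part of these differences in the clock gene values was not tested. The pooled SD of the log2 ratio between probe sets of 1 gene, over 4916 genes with more than 1 that reached the floor in both cultures, was 0.31, which corresponds to 1.24-fold. It covers differences between probe sets only.

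Promoter letters were read first, because the clock proteins act on the clock genes themselves. RefSeq windows of assembly GRCm38.p6, from 250 bases before to 50 bases after a start site, were found for 9 of the 10 genes, with 13 windows in all. The stretches below are printed 5′ to 3′ on the strand of the gene. The E-box CACGTG, its second form CACGTT or the letters TNGGTCA are in capitals. TNGGTCA, where N is any base, is a looser pattern than the core of the ROR element. Where they lie on the opposite strand, the second form reads AACGTG and the looser pattern reads TGACCNA.
Ciart, chr3:95882258-95882358, minus strand: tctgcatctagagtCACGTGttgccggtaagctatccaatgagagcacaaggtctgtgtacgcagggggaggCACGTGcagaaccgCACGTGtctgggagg
Cry1, chr10:85185095-85185147, minus strand: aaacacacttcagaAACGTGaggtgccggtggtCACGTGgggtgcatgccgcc
Per1, chr11:69098769-69098802, plus strand: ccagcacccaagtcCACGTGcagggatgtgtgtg
Nr1d1, chr11:98775386-98775419, minus strand: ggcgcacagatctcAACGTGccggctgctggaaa
Arntl, chr7:113207251-113207304, plus strand: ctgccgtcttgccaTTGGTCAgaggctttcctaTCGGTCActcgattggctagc
Tef, chr15:81802532-81802565, plus strand: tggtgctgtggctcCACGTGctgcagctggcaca
Nfil3, chr13:52981040-52981065, minus strand: gcggcgctcggaacTGACCTActaac
The stretches of Per1, Arntl and Nfil3 lie inside the RefSeq span of their gene, before a start site further along it, and the others lie outside it. Tef and Nfil3, transcription factors related to Dbp in the sites they bind, are shown as partners of the set.

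E-box letters were present in the windows of genes that read lower and of genes that did not. Among the 10 genes, Ciart held 3 copies of CACGTG, and Cry1 and a window of Per1 held 1 each. The same letters were found in 7.15% of all 32851 windows of that length in the table. Nr1d1 and Cry1 held CACGTT, which 4.68% of all windows hold. Arntl held TNGGTCA at 2 places in 1 window and at 3 in its other, overlapping window, a match that 11.0% of all windows hold. The 2 printed for Arntl read TTGGTCA and TCGGTCA, matches to the loose pattern that are not shown to be ROR elements. No window of the 10 genes held the D-box TTANGTAA, the letters that Dbp binds (2.32% of all windows), or the cAMP response element TGACGTCA (1.79%). The windows of Arntl2, Clock, Nr1d2 and Dbp held none of the 5 sets of letters, which were searched on both strands. These matches are letters in a window and not shown to be bound, and no match says only that the letters are not in it.

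**Figure D1:**
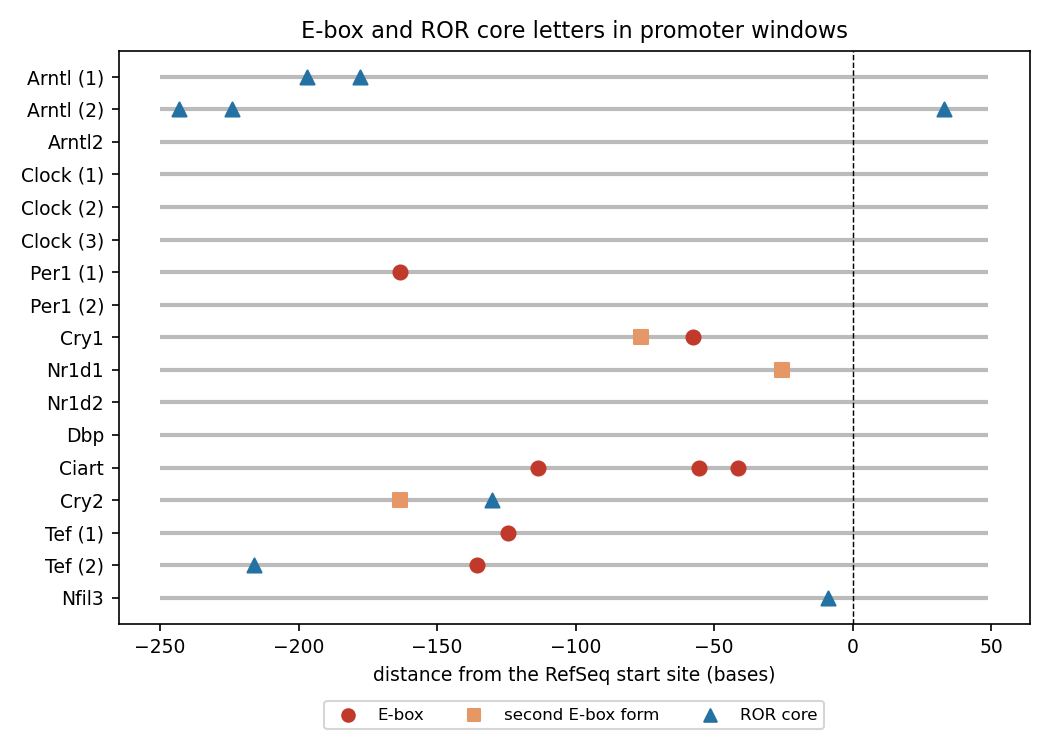
Each grey line is a RefSeq promoter window, with distance from the start site in bases on the x axis and the gene, with the window number where it has several, on the y axis. Circles mark CACGTG, squares CACGTT and triangles TNGGTCA on either strand. The 3 circles of Ciart, within 250 bases before its start site, are the most in any window drawn.

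The activators of the loop were measured by 8 probe sets. Arntl, whose protein BMAL1 is a partner of CLOCK, read 540.2 in the control and 482.8 on the array labelled MED1-null by probe set 1425099_a_at. This is a log2 ratio of -0.16. Its dimmer probe set, 1457740_at, read 110.7 and 130.5, a log2 ratio of 0.24. The 2 went in opposite directions and both were within the spread between probe sets, so no direction was resolved for Arntl. Clock, which encodes the partner of BMAL1, read 1043 and 1009 by its brightest probe set, 1418659_at, with a log2 ratio of -0.05. Its other 3 probe sets read 208.2 and 254.5, 123.0 and 202.2, and 93.6 and 74.4. They ran from -0.33 to 0.72 in log2 ratio, 2 of the 4 above 0 and 2 below, so no direction was resolved for Clock either.

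Arntl2 encodes BMAL2, which can stand in for BMAL1 in pairs with CLOCK. It read 90.6 in the control and 302.5 on the array labelled MED1-null by probe set 1429688_at, which is a log2 ratio of 1.74 or 3.34-fold higher. By probe set 1425931_a_at it read 139.2 and 207.8, a log2 ratio of 0.58 or 1.49-fold higher. Both probe sets exceeded the floor in both cultures and read higher on the array labelled MED1-null, but their ratios lay further apart than the SD of 0.31. Probe set 1429688_at stands for the gene because its mean over both arrays is higher, which comes from the array labelled MED1-null. In the control 1425931_a_at was the brighter, and by it Arntl2 passes neither 2-fold nor 1.5-fold. By 1429688_at, 14 of the 11621 measured genes had a higher ratio, and Arntl2 lay in signal group 2 of 5, made by dividing the measured genes by mean signal, where 2.88% of genes read at least 2-fold higher.

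**Figure D2:**
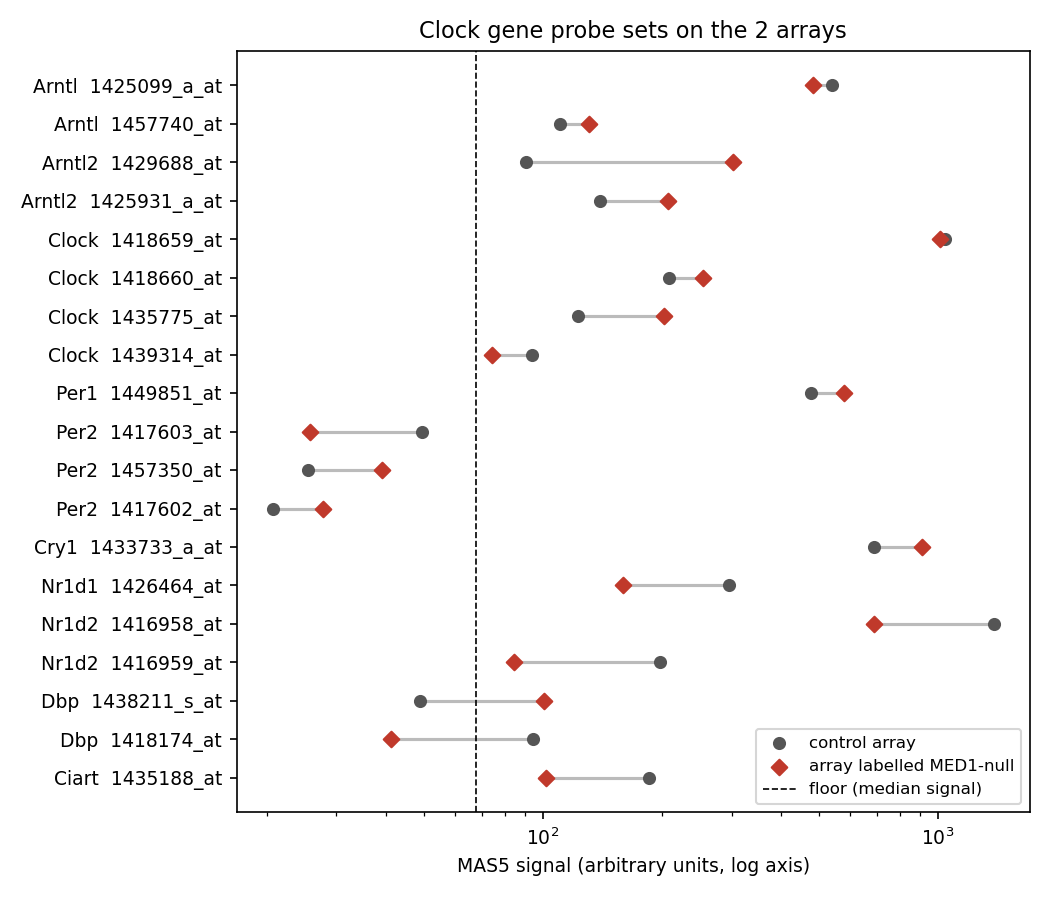
Each row is a probe set of a clock gene, with its MAS5 signal in arbitrary units on a log x axis. Grey circles are the control array, red diamonds the array labelled MED1-null, and the dashed line is the floor of 67.7. Both Arntl2 rows lie to the right for the array labelled MED1-null and the Nr1d1, Nr1d2 and Ciart rows to the left, while the 3 Per2 rows lie under the floor.

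The period and cryptochrome genes encode the proteins that block CLOCK and BMAL1, and those at the floor or above in both cultures did not read lower. Per1 read 476.8 in the control and 577.0 on the array labelled MED1-null, which is a log2 ratio of 0.28, which is within the spread between probe sets. Cry1 read 687.9 and 910.7, a log2 ratio of 0.40 or 1.32-fold higher, which is under 1.5-fold. The ratio is larger than the SD of 0.31 between probe sets, but that SD does not measure a spread between cultures. Of all measured genes 15.8% had a higher ratio than Cry1. Per1 and Cry1 had 1 probe set each, so neither ratio could be checked against another. The 3 probe sets of Per2 read 49.4 and 25.8, 25.4 and 39.2, and 20.7 and 27.8, all below the floor, and no ratio is given for it. Of the paralogs outside the set, Cry2 read 254.4 and 350.3, a log2 ratio of 0.46. Per3 read 67.8 and 51.2 by the probe set used, and none of its 6 probe sets reached the floor in both cultures. Ratios above 0 were thus shared by the 3 genes of this family that were measured on both arrays.

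Ciart, also named Chrono, encodes a repressor that binds BMAL1. It read 185.8 in the control and 101.5 on the array labelled MED1-null by its single probe set, 1435188_at, a log2 ratio of -0.87 or 1.83-fold lower. Of all measured genes 3.18% had a lower ratio. Ciart lay in the dimmest of the 5 signal groups, where 9.08% of genes read at least 1.5-fold lower. Bhlhe40 and Bhlhe41 encode 2 further repressors that compete for E-boxes. Bhlhe40 read 2285 and 3698, 1.62-fold higher, whereas Bhlhe41 read 78.4 and 45.4, the second of them under the floor.

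The REV-ERB genes read lower by every probe set. Nr1d2 read 1382 in the control and 686.3 on the array labelled MED1-null by probe set 1416958_at, which is a log2 ratio of -1.01 or 2.01-fold lower. By probe set 1416959_at it read 198.2 and 84.6, a log2 ratio of -1.23 or 2.34-fold lower. The 2 ratios differed by less than the SD of 0.31. Nr1d1 read 295.3 and 159.2 by its only probe set, 1426464_at, a log2 ratio of -0.89 or 1.85-fold lower. Of all measured genes 2.19% had a lower ratio than Nr1d2 and 3.03% a lower ratio than Nr1d1. Nr1d2 was the brighter measurement, in signal group 4 of 5, where 6.97% of genes read at least 1.5-fold lower and 1.89% at least 2-fold lower. For Nr1d1, in signal group 2, the share at least 1.5-fold lower was 8.73%.

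The ROR receptors act on the same elements as activators. Rora had 9 probe sets, 7 of them measured, and read 472.8 and 387.7 by the brightest, a log2 ratio of -0.29. Those 7 ran from -0.93 to 0.60, with 3 below 0 and 4 above. Rorb read 69.1 and 46.9 and was near the floor or under it. The 4 receptor genes measured had a median log2 ratio of -0.59, against 0.06 over all measured genes. They include Nr1d1 and Nr1d2, chosen with their ratios known, so nothing is read from this median.

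Dbp encodes a PAR bZIP factor, an output of the clock that activates genes through D-boxes. Its probe set 1438211_s_at read 48.9 in the control and 100.9 on the array labelled MED1-null. Its other probe set, 1418174_at, read 94.1 and 41.2. Each was under the floor on 1 array, in opposite directions, and the first has the suffix that marks sequence shared between transcripts, so no direction was resolved for Dbp. Tef, a factor of the same family, read 409.1 and 292.0, a log2 ratio of -0.49 or 1.40-fold lower, and its second measured probe set read 100.2 and, below the floor, 62.1. Hlf, also of that family, was below the floor on both arrays. Nfil3, a repressor that competes for D-boxes, read 237.9 and 103.6 by its single probe set, a log2 ratio of -1.20 or 2.30-fold lower.

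**Figure D3:**
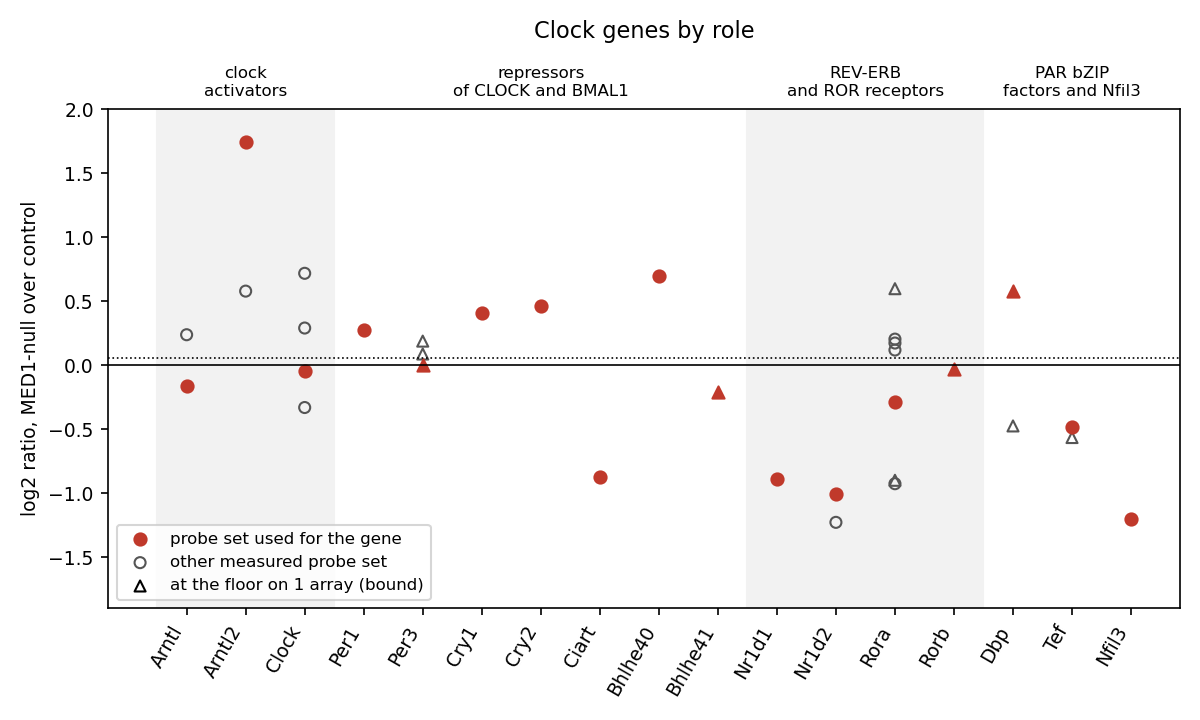
Log2 ratios, MED1-null over control, of every measured probe set (y axis) for the clock genes by role (x axis). Red marks the probe set used for a gene, open grey marks its other probe sets, and triangles are probe sets at the floor on 1 array, whose ratio is a bound. The dotted line is the median of all measured genes, 0.06. The red points of Nr1d1, Nr1d2, Ciart and Nfil3 lie below -0.8 and that of Arntl2 at 1.74, and Npas2, Per2 and Hlf, below the floor, are not drawn.

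Counted over the set, 1 of the 9 measured genes, Arntl2, read at least 2-fold higher, where 1.63% of all measured genes did. Likewise 1, Nr1d2, read at least 2-fold lower, against 2.23% of all. At 1.5-fold, Arntl2 was still the only one higher, against 7.80% of all measured genes. With the probe set brightest in the control for each gene, an alternative added after the values were seen, the number at least 2-fold higher was 0, because Arntl2 was then at 1.49-fold. At 1.5-fold by the probe set used for each gene, Nr1d1, Nr1d2 and Ciart read lower, 3 of 9 against 7.32% of all. Since the genes were chosen with some of these ratios known, nothing particular to the set is read from these counts. The median log2 ratio of the 9 genes was -0.05, in which Arntl, Clock and Dbp count by 1 probe set each, with no direction resolved. The mean log2 ratio of the activators Arntl, Arntl2 and Clock minus that of the others, Per1, Cry1, Nr1d1, Nr1d2, Dbp and Ciart was 0.76. This difference was 0.15 without Arntl2 and 1.10 without Arntl. Its sign was partly set by choosing genes with the ratios of Arntl2, Nr1d1 and Nr1d2 known, so it is a description and supports nothing. When the floor was raised to the 75th percentile of all signals, where Arntl2, Nr1d1, Dbp and Ciart were not measured, it was 0.0048.

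**Figure D4:**
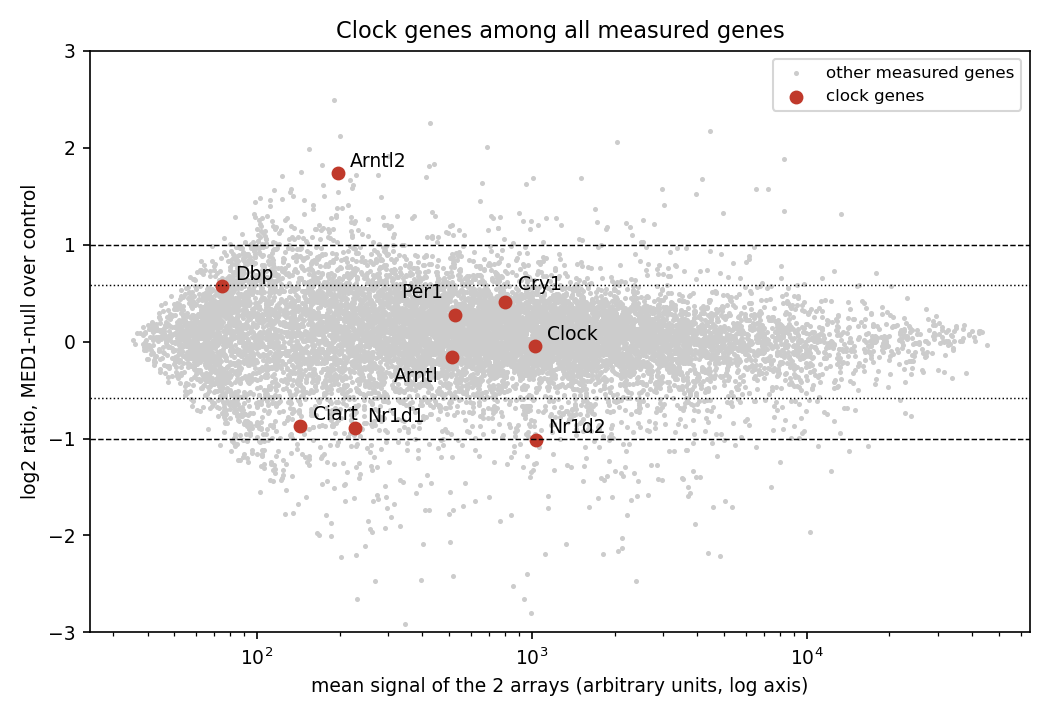
Every point is a measured gene, with the mean signal of the 2 arrays in arbitrary units on a log x axis and the log2 ratio, MED1-null over control, on the y axis. Red points are the 9 measured clock genes, dotted lines mark 1.5-fold and dashed lines 2-fold, and 6 genes beyond 3 log2 units are outside the frame. Arntl2 lies above the 2-fold line, Nr1d2 on the lower one, and Nr1d1 and Ciart between the lower 1.5-fold and 2-fold lines.

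Genes around the loop were then taken by list. The 4 role lists together, activators, repressors, receptors and PAR bZIP factors with Nfil3, hold 21 genes, of which 17 were measured. Of these, Arntl2 and Bhlhe40 read at least 1.5-fold higher and Ciart, Nr1d1, Nr1d2 and Nfil3 at least 1.5-fold lower. These shares stand beside 7.80% higher and 7.32% lower over all measured genes, and 4 of the 6 genes belong to the set of 10, so nothing is read from them. The 8 measured genes of these lists outside the set of 10 included 1 in each direction, Bhlhe40 and Nfil3, and had a median log2 ratio of -0.12. Npas2, a paralog of Clock, stayed under the floor.

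Of 15 genes for kinases, ubiquitin ligases and a protease that set the stability of clock proteins, 12 were measured, with a median log2 ratio of 0.02. Usp2, a ubiquitin protease, read 3011 in the control and 1382 on the array labelled MED1-null, 2.18-fold lower, and its second probe set read 2366 and 1172. Both probe sets thus gave lower signal on the array labelled MED1-null. Csnk1e, a casein kinase that marks PER proteins for breakdown, read 5591 and 3401, 1.64-fold lower, and its 3 probe sets all read lower. Of the others, Gsk3a, a kinase, read 2032 and 1557, and Csnk2a2, a casein kinase catalytic subunit, read 1553 and 2018. None of the 12 read at least 1.5-fold higher, and 2 read at least that much lower, against 7.80% and 7.32% of all measured genes.

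Of 12 clock coregulators 10 were measured, and all 10 were within 1.5-fold, as were 84.9% of all measured genes. Their median log2 ratio was 0.08. Kat2b, an acetyltransferase, read 1444 and 1055, a log2 ratio of -0.45, and by a dimmer probe set 180.4 and 89.0. Wdr5, a subunit of histone methyltransferase complexes, had a log2 ratio of 0.25. Nono, an RNA-binding partner of PER proteins, had one of 0.22 and Crebbp, a histone acetyltransferase, one of 0.19.

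Output genes of the clock went both ways, with 5 above 0 and 5 below among the 10 measured. Tsc22d3, a glucocorticoid-induced transcription regulator, read 6155 in the control and 3177 on the array labelled MED1-null, 1.94-fold lower, and 5492 and 2703 by its next brightest probe set. A dimmer measured probe set of Tsc22d3 read 279.3 and 302.9, slightly higher. Klf10, a transcription factor, read 1853 and 2877, 1.55-fold higher. Aqp3, the water and glycerol channel of keratinocytes, read 639.8 and 920.0, a log2 ratio of 0.52. Lonrf3 read 19.9, which is under the floor, and 96.4. The median over the list was -0.03, against 0.06 over all measured genes.

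Clocks in culture are reset by glucocorticoids and by cAMP, so genes that respond to each were listed. All 10 glucocorticoid-responsive genes were measured, with a median log2 ratio of -0.06. Tsc22d3, given above, and the metallothionein gene Mt2, at 5352 and 3529, read at least 1.5-fold lower, 2 of 10 against 7.32% of all measured genes, and none read that much higher, against 7.80%. The phosphatase gene Dusp1 read 4573 and 3472, and Errfi1, an inhibitor of EGF receptor signalling, read 6158 and 7534. Nr3c1, the glucocorticoid receptor gene, read 2021 and 2049 and so barely differed between the arrays. Of 9 genes that respond to cAMP and CREB, 8 were measured, with a median log2 ratio of 0.24. The immediate early gene Egr1, at 1173 and 2313, and the nuclear receptor gene Nr4a1, at 272.4 and 448.9, read at least 1.5-fold higher. Nr4a3 read 56.0, which is under the floor, and 94.0 by the probe set used. By another probe set Nr4a3 went the other way, at 67.8 and, under the floor, 24.6. The kinase gene Sik1 read 398.0 and 296.4. Egr1 and Nr4a1 are 2 of the 8, against 7.80% of all measured genes, and none of the 8 read at least 1.5-fold lower, against 7.32%.

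Scaling changed the sizes of the ratios but not the direction of any of the 9 genes. When the arrays were rescaled to a median ratio of 1, when they were quantile normalized, and when a lowess curve was removed, Nr1d1 ran from -1.02 to -0.95 in log2 ratio and Ciart from -1.01 to -0.94. With the lowess curve removed, Nr1d1, Nr1d2 and Ciart all read at least 2-fold lower, so that the count of 1 became 3. The choice of probe set mattered more for others. Over all measured probe sets the median log2 ratio of Arntl2 was 1.16, and those of Arntl and Clock were 0.04 and 0.12, above 0. Leaving out probe sets with a suffix for shared sequence, Arntl was at 0.24 and Dbp at -0.48. With the probe set brightest in the control, Arntl2 was at 0.58 and Dbp at -0.48.

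**Figure D5:**
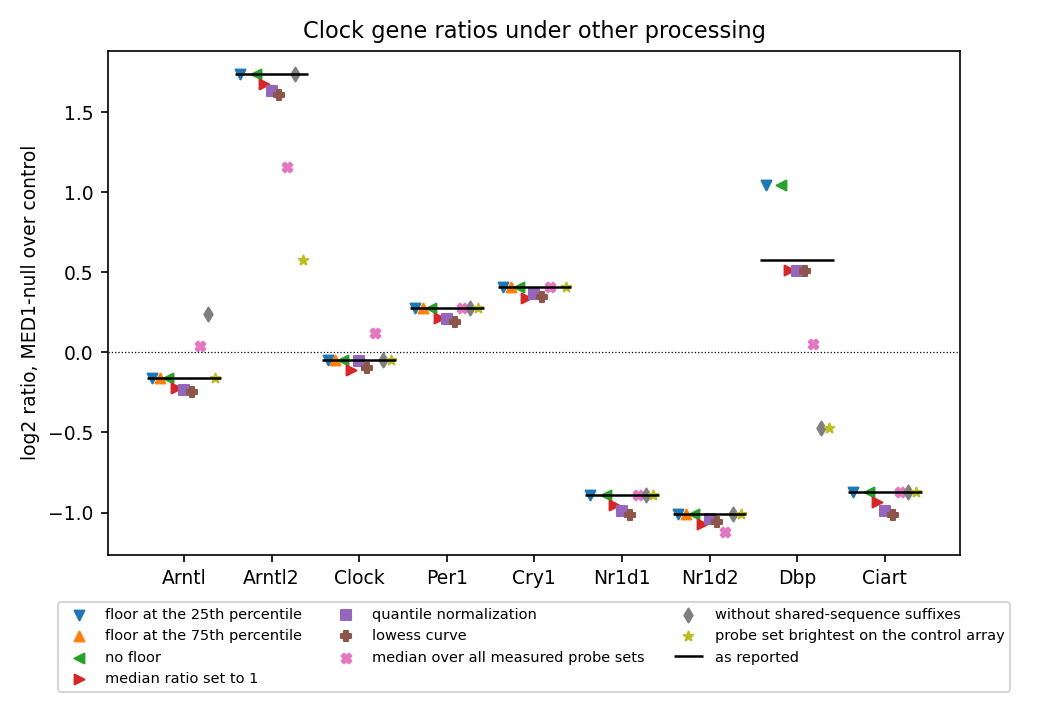
Log2 ratios, MED1-null over control, of the 9 measured clock genes (y axis, by gene on the x axis) under 9 other processing choices, with the reported value as a black line. Nr1d1, Nr1d2 and Ciart stay below -0.8 and Arntl2 runs from 0.58 upward under every choice in which they were measured, while the symbols of Arntl, Clock and Dbp fall on both sides of 0.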

How the data were processed

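Each of the 2 samples is 1 Affymetrix array. The deposited values are linear signal intensities, 1 for every probe set. They were computed with MAS5, per the submitters' processing notes, in GeneChip Operating Software, per the labels' design text. The version is not given in the sources used here. The deposited intensities had a mean of 500.0 on each array after trimming 2% at each end. MAS5 subtracts mismatch signal, so low values are noisy, and log2 was taken after raising signals to the floor. Of 45101 probe sets, 64 are controls, 34945 had 1 gene symbol in the platform annotation, 932 several and 9160 none, and only those with 1 symbol were used. A gene is represented by its brightest probe set, by mean signal over both arrays. Ratios are MED1-null over control, and a ratio with 1 array at the floor is a bound. Groups came from the genotype in the labels.

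The members, lists and thresholds were chosen with earlier results of these data known. All 10 genes and all genes of the 4 role lists were to be named, and of other lists up to 4 measured genes farthest from 0. Nr3c1, Krt1, Krt14, Col1a1, Lum, Tyr, Sox10, Ptprc, Pecam1, Med1, Xist and Eif2s3y were named after their values were seen. Of 111 genes listed, 7 are not reported here. Promoter sequences are from RefSeq, matched by symbol. The counting was checked on simulated data with changes larger than 2-fold, in genes well above the floor, and with less spread than these data. The check does not cover genes nearer the floor. Python 3.11.15, pandas 2.3.3, numpy 2.4.6, scipy 1.17.1, statsmodels 0.14.6 (lowess span 0.3) and matplotlib 3.10.9 were used. The alternatives tried were no floor, floors of 18.1 (percentile 25) and 434.6 (percentile 75), 3 scalings, other probe set choices (the one brightest in the control was added after the values were seen) and a 1.5-fold threshold.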

Additional observations from a re-analysis of the deposited data

How the results depend on the processing

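With 1 array per group, no replicate could be left out, and no paired analysis was possible because each group holds 1 sample. A log2 ratio, or a median or difference of log2 ratios, is described as moved where it differed from the reported one by more than the SD of 0.31 between probe sets. That rule does not apply to counts of genes, which are given wherever they changed. The number of clock genes at least 2-fold higher was 1, and became 2 with the floor at the 25th percentile and with no floor, where Dbp passed at a log2 ratio of 1.05, and 0 with the floor at the 75th percentile, where Arntl2 was not measured. It was also 0 with the probe set brightest in the control, an alternative added after the values were seen. The number at least 2-fold lower was 1, and became 3 with the lowess curve removed and 3 at a threshold of 1.5-fold. The difference between Arntl, Arntl2 and Clock and the other genes of the set, 0.76, became 0.0048 with the floor at the 75th percentile. It became 1.24 without probe sets of shared sequence. Leaving out single genes was added after the values were seen, and moved it to 1.10 without Arntl and 0.15 without Arntl2. Of the role lists, which are other groups of genes, 2 medians moved with the floor at the 25th percentile. That of the clock activators went from -0.048 to 0.30. That of the repressors of CLOCK and BMAL1, a list without Nr1d1, Nr1d2 and Dbp, went from 0.28 to -0.065. The median of the fibroblast markers, -0.77, became -1.31 and -1.39 with the floor at the 25th and 75th percentiles and -1.52 with none. That of the endothelial markers, -0.25, became -0.64 with the floor at the 25th percentile and with none. Ratios of Nr1d1, Nr1d2, Ciart, Per1, Cry1 and Clock moved under none of the alternatives in which they were measured, though Clock changed side of 0. The cause of these changes was not tested beyond the genes named.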
